A study of Mus musculus with 4 samples.

Results

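Genes of T cells and natural killer (NK) cells were followed in imiquimod-inflamed mouse back skin with and without a topical fumarate lotion. The set holds 38 genes chosen by name, and all 38 had a row among the 20611 gene symbols of the count tables. They code for the T cell receptor complex and its coreceptors, signalling proteins, costimulatory and checkpoint receptors, cytokine receptors, integrins, transcription factors and the cytotoxic machinery, with Arhgap15 and Snx20 as 2 further leukocyte genes. There was 1 library of skin that received imiquimod and the lotion with IDMF (IMQ+IDMF), 2 of skin that received imiquimod and vehicle lotion (IMQ+VEH, replicates 1 and 2), and 1 of skin that received imiquimod alone (IMQ). IDMF stands for isosorbide di-(methyl fumarate), which the submitters describe as a pro-drug of dimethyl fumarate. The animals were male BALB/c mice, 8 to 9 weeks old. All of them, controls included, had 5% imiquimod cream at 47 mg per day from day 1 to day 5. Lotions followed about 1 h after the cream, and skin was taken on day 6. Imiquimod activates Toll-like receptor 7 and gives mice a psoriasis-like dermatitis. Untreated skin was not analysed here. The design text describes the libraries as independent biological samples, and it does not say whether any pooled several animals.

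T cells recognise antigen through a receptor whose signal is carried into the cell by the CD3 chains, which hold tyrosine motifs that the kinase Lck phosphorylates. Zap70 then binds these motifs and phosphorylates the scaffold Lat, to which Lcp2 (SLP-76) is recruited. Mouse epidermis holds resident gamma-delta T cells, and dermal T cells that make IL-17 are known for their part in imiquimod dermatitis. NK cells and cytotoxic T cells kill with perforin and granzymes. In whole skin these cells are few, and lower RNA of their genes can mean fewer cells or less RNA per cell, which bulk libraries cannot tell apart.

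The upstream sequences of the CD3 genes are shown because they code for the chains of 1 complex and 3 of them lie side by side on chromosome 9. Cd3g (44969572 to 44980431, minus strand, GRCm38) and Cd3d (44981786 to 44987339, plus strand) are read away from each other, with start sites 1355 bases apart. Cd3e (44998740 to 45009627, minus strand) follows, and Cd247, which codes for the zeta chain, lies on chromosome 1 (165788681 to 165877277, plus strand). The 250 bases before each start are given from RefSeq (GRCm38.p6), 5′ to 3′ on the gene's strand. Capitals mark matches on either strand to GGAAG, a core of ETS factor sites, and to TGNGGT, a core of RUNX sites.
Cd3g: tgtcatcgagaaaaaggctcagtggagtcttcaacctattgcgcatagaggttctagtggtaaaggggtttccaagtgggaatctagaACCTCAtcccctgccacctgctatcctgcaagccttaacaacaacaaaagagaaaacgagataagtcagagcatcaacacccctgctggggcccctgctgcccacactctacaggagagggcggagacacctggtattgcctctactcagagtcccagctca
Cd3d: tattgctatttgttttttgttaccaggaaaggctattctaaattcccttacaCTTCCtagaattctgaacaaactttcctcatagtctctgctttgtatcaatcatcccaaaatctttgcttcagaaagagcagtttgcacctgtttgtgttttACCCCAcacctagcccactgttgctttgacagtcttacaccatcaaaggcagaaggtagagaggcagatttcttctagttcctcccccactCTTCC
Cd3e: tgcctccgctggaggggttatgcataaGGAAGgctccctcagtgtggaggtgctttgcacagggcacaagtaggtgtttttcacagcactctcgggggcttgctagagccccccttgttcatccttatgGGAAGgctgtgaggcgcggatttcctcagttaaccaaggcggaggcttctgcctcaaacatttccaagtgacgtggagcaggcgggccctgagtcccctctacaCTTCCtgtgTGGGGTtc
Cd247: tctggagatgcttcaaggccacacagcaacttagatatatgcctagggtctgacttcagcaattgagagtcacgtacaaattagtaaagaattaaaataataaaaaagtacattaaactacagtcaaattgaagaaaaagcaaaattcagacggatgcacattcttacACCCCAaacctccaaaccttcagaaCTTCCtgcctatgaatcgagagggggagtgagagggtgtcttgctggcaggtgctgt
These windows lie at chr9:44980432-44980681 for Cd3g, chr9:44981536-44981785 for Cd3d, chr9:45009612-45009861 for Cd3e and chr1:165788431-165788680 for Cd247. GGAAG was found 0 times before Cd3g, 2 times before Cd3d, 3 times before Cd3e and 1 time before Cd247. TGNGGT was found 1 time in each of the 4 windows. Among all 32851 RefSeq promoter windows, 64.07% held GGAAG and 40.09% held TGNGGT, against which 25 and 17 of the 30 windows of 25 members held them. Neither motif was thus rare, and a match is no evidence of binding. The motif AGATAA, to which factors of the GATA family bind, was in 3 of the member windows, against 9.99% of all windows, and one of the 3 lies before Cd3g.

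Total counts were 21991604 in IMQ+IDMF, 26639628 and 21167149 in IMQ+VEH, and 26337985 in IMQ. Keratinocyte genes marked each library as skin: their summed level was 57082 CPM (counts scaled to the library size after TMM normalization) in IMQ+IDMF, 50291 and 61684 in IMQ+VEH and 71034 in IMQ. The IMQ+VEH pair had a root mean square difference of 0.639 (log2 CPM) across 15068 tested genes and of 0.899 across the 35 members that passed the filter on low counts. Any difference read against that pair therefore rests on a wide spread. Cd28, Ctla4 and Foxp3 had too few counts to be tested.

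Most of the 38 genes were weakly expressed. By the authors' deposited FPKM, which allow genes of different length to be compared, the median of a member over the 4 libraries ran between 0.026 and 14.8, and 20 members stayed under 1 in every library. Thy1, a surface protein of T cells that fibroblasts and nerve also make, was highest at 14.9 FPKM in IMQ+IDMF, 21.7 and 14.6 in IMQ+VEH and 8.38 in IMQ. Next by median FPKM came Il2rg (3.80), the common gamma chain of several interleukin receptors, then Gzmc (3.24), a granzyme, Cd3g (3.08) and Cd5 (2.20), an inhibitory T cell surface receptor. Cd3d and Cd3e stayed lower, with medians of 0.83 and 0.54 FPKM. Foxp3, the factor of regulatory T cells, and Ctla4, their inhibitory receptor, were among the 3 lowest. Lcp2 and Cd247, which follow each other in this order, did not differ beyond their spread, since Lcp2 had 2.48 and 0.785 FPKM in IMQ+VEH and Cd247 had 1.03 and 1.01. In counts, 21 members had fewer than 50 in every library, so counting error is large for them.

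**Figure D1:**
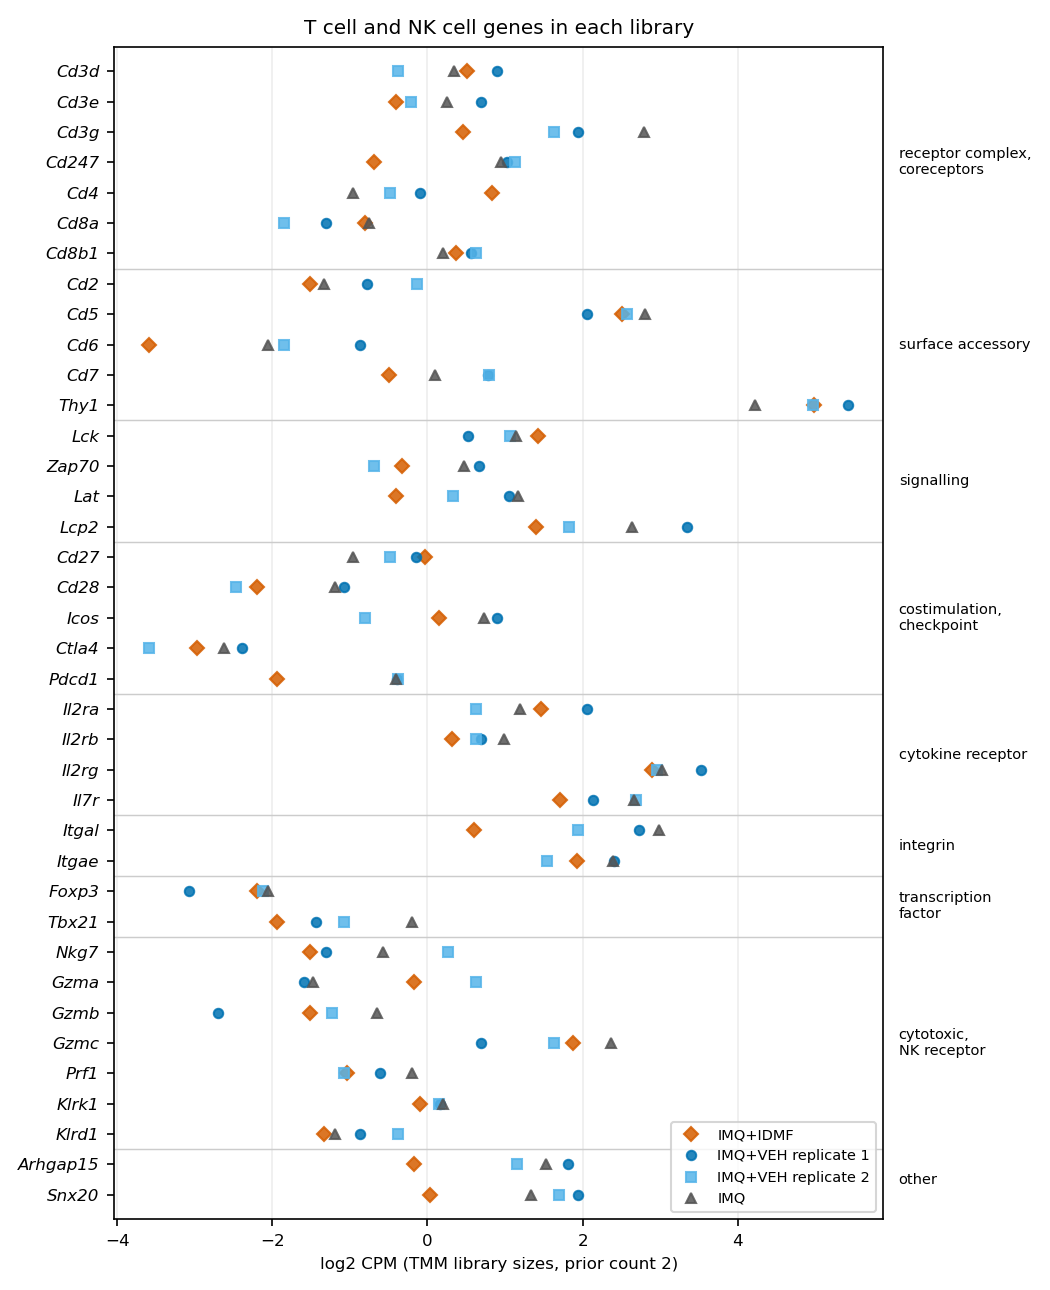
Level of each of the 38 genes on the log2 CPM scale (x axis, prior count 2) in the 4 libraries (1 symbol per library), grouped by role. For Itgal, Cd3g, Cd247, Snx20 and Arhgap15 the IMQ+IDMF symbol lies left of the other 3, while for Cd4 and Lck it lies right of them.

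Setting IMQ+IDMF against IMQ+VEH asks what the compound adds to the lotion. IMQ+IDMF lay below both IMQ+VEH libraries for 20 of the 38 genes, against 26.1% of all genes with a count, and above both for 5, against 28.4%. No member passed the threshold. Over the 35 tested members these counts were again 20 and 5, beside 27.5% and 27.7% of all tested genes, and beside 35.2% and 27.8% of tested genes with a mean count between 10.3 and 129.4, where most members lie. The median difference to the IMQ+VEH mean was -0.34 in log2 CPM over the 35 (-0.48 to replicate 1 and -0.27 to replicate 2), against 0.0068 over all tested genes. Within the IMQ+VEH pair the same median was -0.30 (replicate 2 minus replicate 1), nearly as large. By edgeR's quasi-likelihood test 0 of 15068 genes were called (0%), the adjusted p of every tested member was 1, and DESeq2 also called 0. An unadjusted p under 0.05 was reached by 306 of all tested genes (2.03%) and by 5 members, all lower: Itgal, Snx20, Arhgap15, Cd247 and Cd3g. Earlier results of these data had already named these 5 as low in this library, so their place in the set is no independent support. Without them 15 of 30 tested members lay below both libraries and 5 above both, with a median of -0.24.

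**Figure D2:**
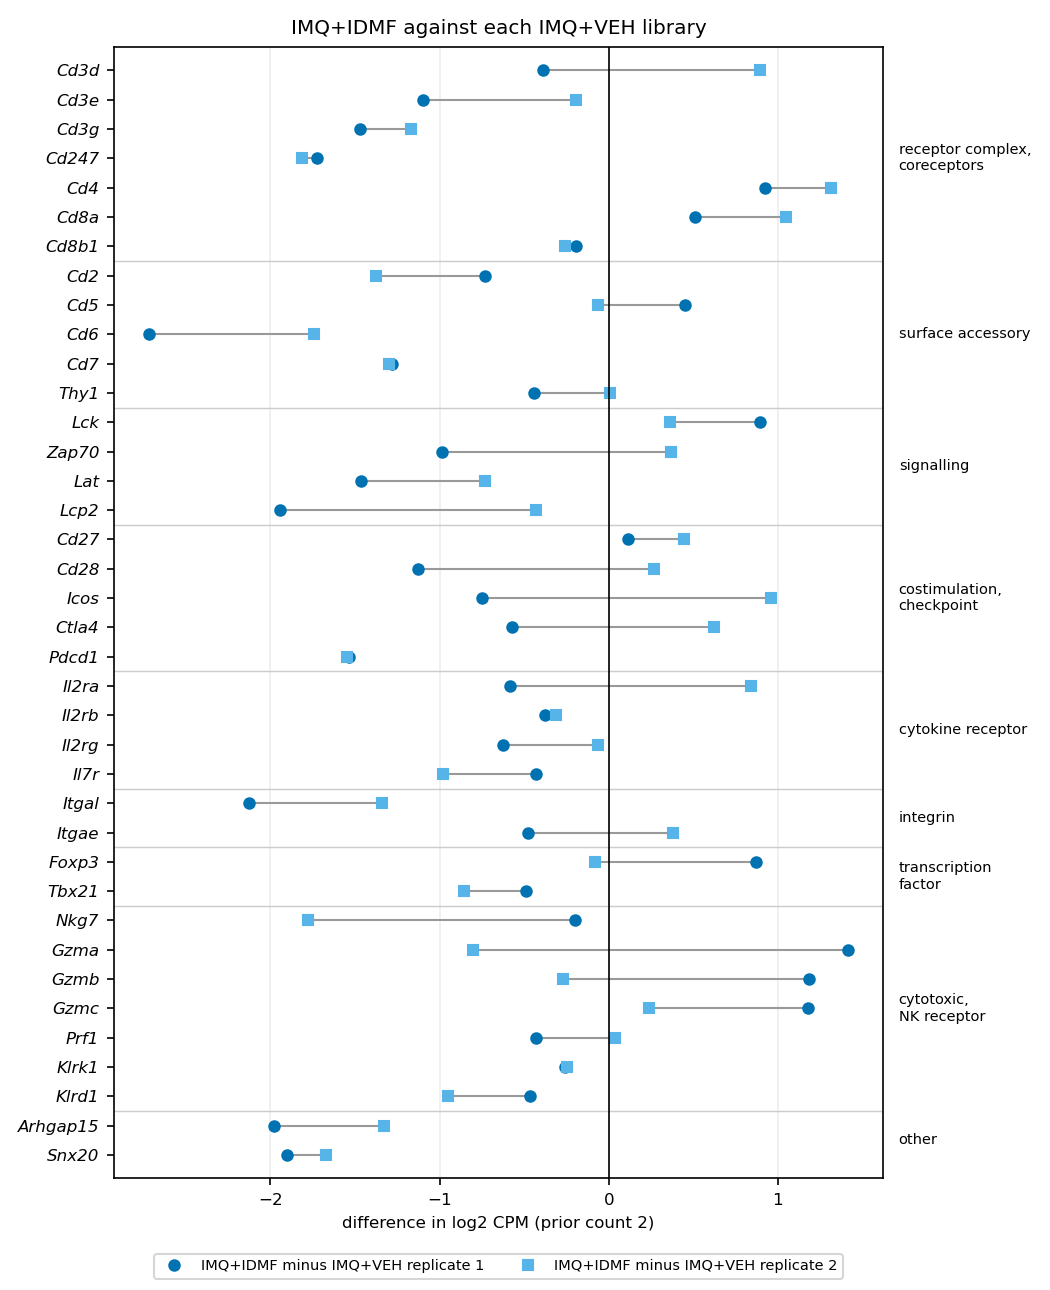
Difference in log2 CPM between IMQ+IDMF and each IMQ+VEH library (x axis) for the 38 genes, with a line joining both differences of a gene. Both symbols lie left of 0 for 20 genes and right of 0 for 5, and the long lines show genes that differ widely within the IMQ+VEH pair, such as Icos and Gzma.

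Of the 4 CD3 chain genes, 3 lay below both IMQ+VEH libraries and 0 above both, against 26.1% and 28.4% of all genes with a count. None passed the threshold, and differences between the chains were not tested. Cd3g, the gamma chain, had 29 counts with IMQ+IDMF, against 105 and 62 with IMQ+VEH and 173 with IMQ. Its log2 fold change to IMQ+VEH was -1.38 (SE 0.62), a level 2.61-fold lower that did not pass the threshold. It was lowest in IMQ+IDMF and highest in IMQ. Of all genes with a count, 18.2% were likewise lowest in IMQ+IDMF. Cd247, the zeta chain with the most signalling motifs, had 12 counts with IMQ+IDMF, against 55 and 43 with IMQ+VEH and 47 with IMQ (log2 fold change -1.91, SE 0.85). Its exons overlap those of Pou2f1 on the other strand, and 55.9% of its 50-base stretches also occur in transcripts of another gene, so its counts are uncertain. Pou2f1 itself had 323 counts with IMQ+IDMF, against 394 and 205 with IMQ+VEH and 432 with IMQ, a log2 difference of 0.28 to IMQ+VEH. The epsilon chain gene Cd3e had 15 counts with IMQ+IDMF, against 43 and 16 with IMQ+VEH and 28 with IMQ (-0.79, SE 0.96). Here IMQ+IDMF and IMQ+VEH replicate 2 were nearly equal. Cd3d, which codes for the delta chain and is the neighbour of Cd3g, had 30 counts with IMQ+IDMF, against 50 and 14 with IMQ+VEH and 30 with IMQ (0.10, SE 0.87), so that IMQ+IDMF lay inside the IMQ+VEH pair. Summed over the 4 chains, IMQ+IDMF had 3.85 CPM (exact 95% binomial interval 3.08 to 4.75, counting error only), against 9.02 (7.94 to 10.2) and 6.58 (5.52 to 7.79) in IMQ+VEH and 10.95 (9.70 to 12.3) in IMQ. Cd3g and Cd247, both named as low in earlier results of these data, enter this sum. Without Cd3g the sum was 2.55 CPM (1.93 to 3.30) in IMQ+IDMF. It was 5.27 (4.46 to 6.20) and 3.56 (2.79 to 4.48) in IMQ+VEH and 4.14 (3.38 to 5.01) in IMQ. The intervals of IMQ+IDMF and IMQ+VEH replicate 2 then overlapped.

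None of the 3 coreceptor genes was lowest in IMQ+IDMF. Cd4, the coreceptor of helper T cells, had 38 counts with IMQ+IDMF, against 24 and 13 with IMQ+VEH and 11 with IMQ. It was highest in IMQ+IDMF, with a log2 fold change of 1.18 (SE 0.89) to IMQ+VEH that did not pass the threshold. Cd8a, a chain of the coreceptor of cytotoxic T cells, had 11 counts with IMQ+IDMF, against 9 and 4 with IMQ+VEH and 13 with IMQ. Its partner Cd8b1 had 27 counts with IMQ+IDMF, against 39 and 30 with IMQ+VEH and 27 with IMQ. The counts of Cd8a are too few to order the libraries, and Cd8b1 shares 6.28% of its 50-base stretches with other genes.

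Among surface accessory genes, Cd7, a protein of T and NK cells, had 14 counts with IMQ+IDMF, against 46 and 34 with IMQ+VEH and 25 with IMQ (log2 fold change -1.39, SE 0.89). Both IMQ+VEH libraries lay well above IMQ+IDMF, with IMQ between. Cd7 shares 6.92% of its 50-base stretches with Gm11775, an annotated gene whose exons overlap it on the other strand. Cd6, an adhesion receptor of T cells, had 0 counts with IMQ+IDMF, against 13 and 4 with IMQ+VEH and 4 with IMQ. A count of 0 in that library allows up to 0.134 CPM (3 counts), against 0.463 and 0.195 CPM in the IMQ+VEH libraries, and with counts this small no fold is given. Cd2, an adhesion receptor, had 6 counts with IMQ+IDMF, against 14 and 17 with IMQ+VEH and 8 with IMQ. Cd5 lay inside the IMQ+VEH pair after scaling, at 125 counts with IMQ+IDMF, against 114 and 120 with IMQ+VEH and 176 with IMQ (log2 fold change 0.18, SE 0.49). Thy1 had 705 counts with IMQ+IDMF, against 1204 and 643 with IMQ+VEH and 470 with IMQ (-0.24, SE 0.31), also inside the pair after scaling.

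Of the 4 signalling genes, 2 lay below both IMQ+VEH libraries and 1 above both, against 26.1% and 28.4% of all genes with a count. None passed the threshold. The scaffold gene Lat had 15 counts with IMQ+IDMF, against 56 and 24 with IMQ+VEH and 55 with IMQ (log2 fold change -1.24, SE 0.86). Lcp2, an adaptor that myeloid cells and platelets also use, had 57 counts with IMQ+IDMF, against 282 and 71 with IMQ+VEH and 156 with IMQ (-1.41, SE 0.66). Both were lowest in IMQ+IDMF, but for Lcp2 the IMQ+VEH pair differed more than IMQ+IDMF did from replicate 2. The kinase gene Lck had 58 counts with IMQ+IDMF, against 38 and 41 with IMQ+VEH and 54 with IMQ (0.63, SE 0.69), and was highest in IMQ+IDMF. Zap70 had 16 counts with IMQ+IDMF, against 42 and 11 with IMQ+VEH and 33 with IMQ, so that IMQ+IDMF lay inside the pair.

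Of the integrin chains, Itgal had the lowest unadjusted p of the members. It codes for the alpha chain of LFA-1, which leukocytes of many kinds use to adhere and enter tissue, and lies on chromosome 7 (127296260 to 127335138, plus strand, GRCm38). Itgal had 32 counts with IMQ+IDMF, against 183 and 77 with IMQ+VEH and 199 with IMQ. The log2 fold change to IMQ+VEH was -1.85 (SE 0.61), a level 3.59-fold lower, with an edgeR adjusted p of 1. IMQ+IDMF lay below the 3 other libraries, and of Itgal's 50-base stretches 0% occur in another gene. Itgae, the integrin chain that holds T cells to the epithelium, had 83 counts with IMQ+IDMF, against 146 and 58 with IMQ+VEH and 131 with IMQ (-0.12, SE 0.58). Here IMQ+IDMF lay inside the pair.

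Arhgap15, a GTPase activator for Rac, and Snx20, a sorting nexin that binds the selectin ligand PSGL-1, are made in many leukocytes. Arhgap15 had 18 counts with IMQ+IDMF, against 96 and 44 with IMQ+VEH and 71 with IMQ (log2 fold change -1.79, SE 0.76). Snx20 had 21 counts with IMQ+IDMF, against 105 and 65 with IMQ+VEH and 62 with IMQ (-1.88, SE 0.71). For both genes IMQ+IDMF lay below all 3 other libraries. The exact counting intervals of IMQ+IDMF lay under those of both IMQ+VEH libraries for 6 of the 35 tested members, namely Cd3g, Cd247, Cd7, Itgal, Arhgap15 and Snx20, against 5.65% of all tested genes. They lay above both for 0 members, against 5.43%. These intervals hold counting error and no variation between animals. All of the 6 but Cd7 had been named as low in this library by earlier results of these data. Their place here is thus no independent support.

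**Figure D3:**
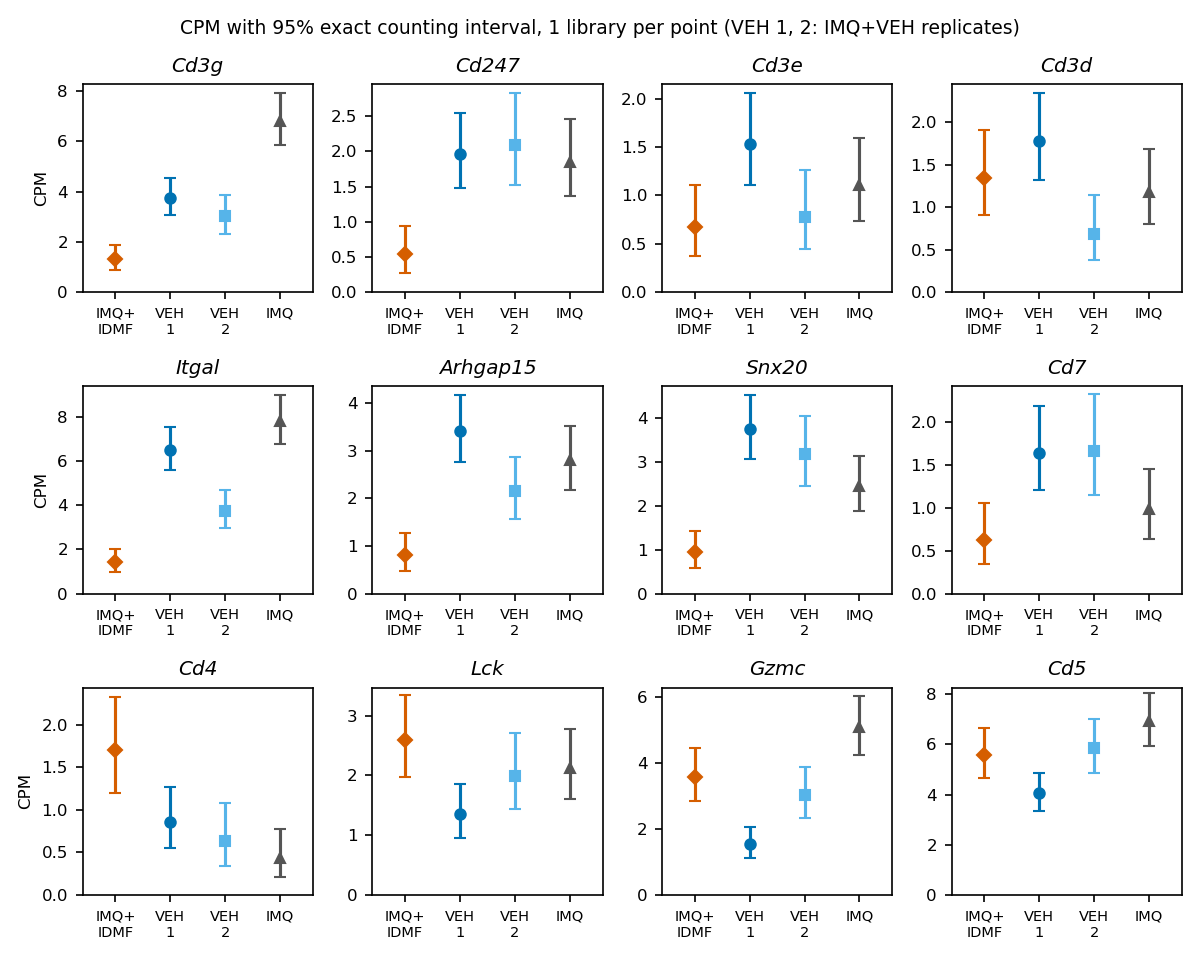
CPM (y axis, from 0) of 12 of the genes in each library, 1 point per library, with exact 95% binomial intervals for counting error. The IMQ+IDMF interval is clear of both IMQ+VEH intervals for Cd3g, Cd247, Itgal, Arhgap15, Snx20 and Cd7, and overlaps at least one of them for the other 6.

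Of the 4 cytokine receptor genes, 3 lay below both IMQ+VEH libraries, against 26.1% of all genes with a count, and none passed the threshold. Il7r, the receptor chain for the T cell survival factor IL-7, had 71 counts with IMQ+IDMF, against 121 and 130 with IMQ+VEH and 159 with IMQ (log2 fold change -0.74, SE 0.54). Il2rb, a chain of the IL-2 and IL-15 receptors, had 26 counts with IMQ+IDMF, against 43 and 30 with IMQ+VEH and 48 with IMQ (-0.37, SE 0.78). Il2rg had 165 counts with IMQ+IDMF, against 321 and 158 with IMQ+VEH and 205 with IMQ (-0.38, SE 0.44), and it shares 27.5% of its 50-base stretches with the annotated gene Gm20489. These 3 were lowest in IMQ+IDMF after scaling to library size, by a margin of 0.06 in log2 CPM for Il2rg. Il2ra, the high-affinity chain of activated and regulatory T cells, had 60 counts with IMQ+IDMF, against 114 and 30 with IMQ+VEH and 56 with IMQ, inside the pair.

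Of the 5 costimulatory and checkpoint genes, 1 lay below both IMQ+VEH libraries and 1 above both, against 26.1% and 28.4% of all genes with a count. All 5 had 50 counts or fewer in each library. Pdcd1, which codes for the checkpoint receptor PD-1, had 4 counts with IMQ+IDMF, against 19 and 14 with IMQ+VEH and 17 with IMQ (log2 fold change -1.90, SE 1.25). Icos, a costimulatory receptor of activated T cells, had 23 counts with IMQ+IDMF, against 50 and 10 with IMQ+VEH and 40 with IMQ, inside the pair. Cd27, a costimulatory receptor of the TNF receptor family, had 20 counts with IMQ+IDMF, against 23 and 13 with IMQ+VEH and 11 with IMQ. Of the genes too low to test, Cd28 had 3 counts with IMQ+IDMF, against 11 and 2 with IMQ+VEH and 9 with IMQ, and Ctla4 had between 0 and 3 in every library. Foxp3 had 3 counts with IMQ+IDMF, against 1 and 3 with IMQ+VEH and 4 with IMQ, so regulatory T cells could not be followed at this depth. Tbx21, the factor T-bet of type 1 T cells and NK cells, had 4 counts with IMQ+IDMF, against 8 and 8 with IMQ+VEH and 20 with IMQ.

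None of the 7 cytotoxic and NK receptor genes passed the threshold. Gzmc had 80 counts with IMQ+IDMF, against 43 and 62 with IMQ+VEH and 129 with IMQ (log2 fold change 0.66, SE 0.62), above both IMQ+VEH libraries and below IMQ. Gzma, a granzyme of NK and cytotoxic T cells, had 18 counts with IMQ+IDMF, against 7 and 30 with IMQ+VEH and 7 with IMQ. The IMQ+VEH pair differed here by 2.22 in log2 CPM, the widest gap of any member. Gzmb had 6 counts with IMQ+IDMF, against 2 and 7 with IMQ+VEH and 14 with IMQ, and Prf1, which codes for perforin, had 9, against 16 and 8 with IMQ+VEH and 20 with IMQ. Klrk1, which codes for the activating receptor NKG2D, had 19 counts with IMQ+IDMF, against 29 and 21 with IMQ+VEH and 27 with IMQ (-0.28, SE 0.91). Klrd1, which codes for CD94, had 7 counts with IMQ+IDMF, against 13 and 14 with IMQ+VEH and 9 with IMQ, and the granule gene Nkg7 had 6, against 9 and 23 with IMQ+VEH and 15 with IMQ. Of these 7 genes 3 lay below both IMQ+VEH libraries and 1 above both, against 26.1% and 28.4% of all genes with a count. Each of the 3 had fewer than 30 counts in every library.

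Set against IMQ alone, IMQ+IDMF gives 1 library against 1 and no test. It lay over 2-fold lower for 11 of the 38 genes, against 5.72% of all genes with a count (4.51% of tested genes), and over 2-fold higher for 2, Cd4 and Gzma, against 8.44% (6.78% of tested genes). Among tested genes with a mean count between 10.3 and 129.4 these shares were 10.8% and 14.4%. Itgal (-2.39) and Cd3g (-2.32) had the lowest log2 CPM differences, and Cd4 had the highest (1.79). The median over the 35 tested members was -0.59, against 0.0017 over all tested genes. This comparison and the one with IMQ+VEH share the IMQ+IDMF library, so they are not independent of each other. IMQ+IDMF lay below all 3 other libraries for 19 of the 38 genes, against 18.2% of genes with a count, and above all 3 for 3, namely Cd4, Lck and Cd27, against 20.5%. With the 3 others taken as 1 group edgeR called 0 of 15068 genes (0%), with 168 genes (1.11%) and 5 members, all lower, at an unadjusted p under 0.05.

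Other genes with known roles in lymphocytes were read from lists that hold no member. Some had far higher levels than the CD3 chains. With IMQ+IDMF, Csk of T cell receptor signalling had 62.7 CPM and the transcription factor gene Gata3 had 86.4 CPM, against 0.67 for Cd3e. Which cells made the RNA of these lists was not tested. Over all tested genes, 27.5% lay below both IMQ+VEH libraries and 27.7% above both. Of 30 tested genes of T cell receptor signalling, 19 lay below both and 2 above both. Their medians were -0.61 to replicate 1 and -0.09 to replicate 2. No gene of these lists passed the threshold in either direction. Examples were Sh2d2a, an adaptor of T cells, with 7 counts with IMQ+IDMF, against 59 and 14 with IMQ+VEH and 26 with IMQ, and Sla, another adaptor, with 54, against 165 and 90 with IMQ+VEH and 164 with IMQ. Of 10 further NK and cytotoxic genes that were tested, 6 lay below both and 1 above both. Among them Klrb1c, an NK receptor gene, had 1 count with IMQ+IDMF, against 12 and 17 with IMQ+VEH and 6 with IMQ. Ncr1, which marks NK cells, had 4, against 9 and 14 with IMQ+VEH and 6 with IMQ. The 1 gene above both was Klrc1, with 8 counts with IMQ+IDMF, against 5 and 4 with IMQ+VEH and 12 with IMQ. Checkpoint and costimulatory genes outside the set lay below both for 3 of 12 and above both for 3, near the shares of all tested genes. Havcr2 had 96 counts with IMQ+IDMF, against 113 and 83 with IMQ+VEH and 116 with IMQ. T cell transcription factors lay below both for 6 of 14 and above both for 4. Ikzf1, the factor Ikaros, had 74 counts with IMQ+IDMF, against 172 and 113 with IMQ+VEH and 145 with IMQ. The 4 above both were Tcf7, Lef1, Satb1 and Bcl11b, and all of them but Bcl11b also lay above IMQ. Tcf7 had 13.2 CPM with IMQ+IDMF, against 9.62 and 10.7 with IMQ+VEH and 8.90 with IMQ.

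Gamma-delta and type 17 T cell genes differed widely within the IMQ+VEH pair. Of 9 tested, 3 lay below both IMQ+VEH libraries and 3 above both, against 27.5% and 27.7% of all tested genes. Their median was -1.29 between replicate 2 and replicate 1. The scavenger receptor gene 5830411N06Rik, of a family that marks gamma-delta T cells, had 25 counts with IMQ+IDMF, against 303 and 30 with IMQ+VEH and 212 with IMQ. IMQ+IDMF and IMQ+VEH replicate 2 were alike and far below the remaining libraries. The chemokine receptor gene Ccr6 was likewise lowest in these 2 libraries, with 2 counts with IMQ+IDMF, against 18 and 3 with IMQ+VEH and 24 with IMQ. T cell receptor constant and gamma-delta variable chain genes were not analysed here.

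Genes of other leukocytes were also low in IMQ+IDMF, though 0 of them passed the threshold. All 12 genes of a pan-leukocyte list were tested. Of these, 11 lay below both IMQ+VEH libraries and 0 above both, against 27.5% and 27.7% of all tested genes. Their medians were -0.78 to replicate 1 and -0.52 to replicate 2. Their summed level was 205 CPM in IMQ+IDMF, 317 and 254 in IMQ+VEH and 245 in IMQ. Ptprc codes for the leukocyte antigen CD45 and is also counted in the T cell receptor signalling list. It had 205 counts with IMQ+IDMF, against 603 and 361 with IMQ+VEH and 474 with IMQ (log2 fold change -1.09, SE 0.36). The monocyte, macrophage and dendritic list had 23 of 25 genes below both and 0 above both, with medians of -1.37 and -0.52. Its summed level was 718 CPM in IMQ+IDMF, 1649 and 993 in IMQ+VEH and 1107 in IMQ. Both lists had a lower median than the T cell and NK cell genes, a difference that was not tested, and in neither was a gene at 0 in all libraries. Fibroblast genes lay below both for 11 of 11, at 2728 CPM in IMQ+IDMF, 7341 and 3924 in IMQ+VEH and 2265 in IMQ. Keratinocyte genes lay below both for 0 of 11 and above both for 5. Itgal, Lcp2, Il2rg, Arhgap15 and Snx20 are also made by other leukocytes, whose part in their values was not tested.

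**Figure D4:**
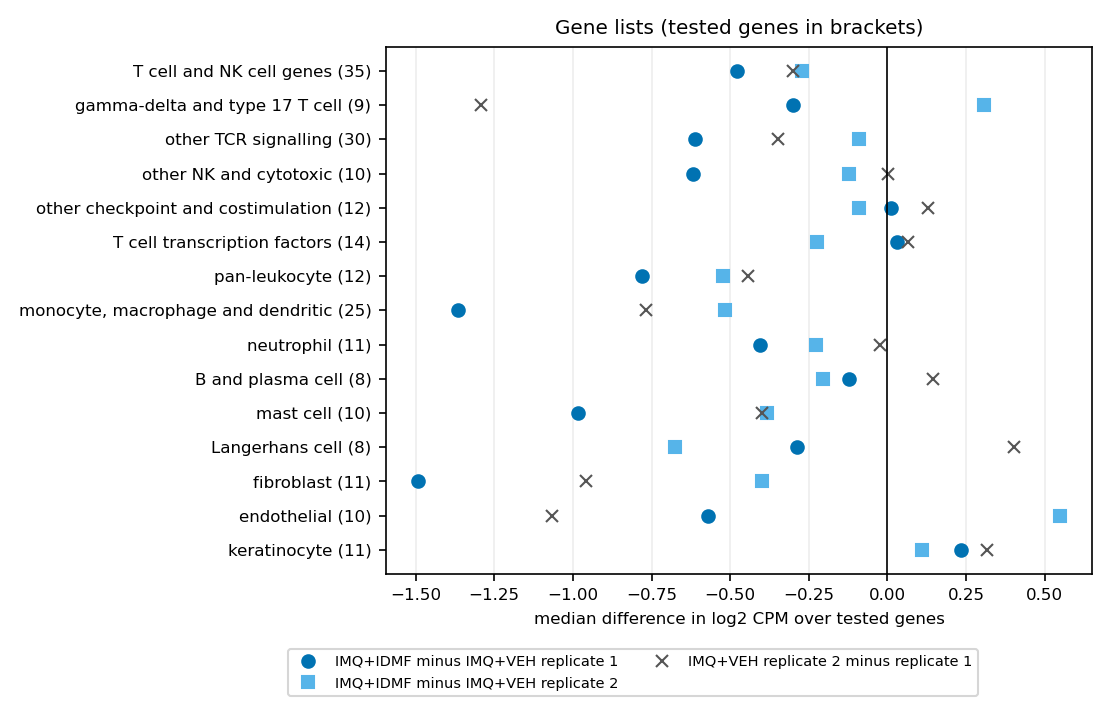
Median difference in log2 CPM (x axis) over the tested genes of each list, for IMQ+IDMF against each IMQ+VEH library and between the IMQ+VEH libraries (crosses). The T cell and NK cell genes have -0.48, -0.27 and -0.30, and the monocyte, macrophage and dendritic list has -1.37, -0.52 and -0.77.

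The comparison of IMQ+VEH with IMQ asks what the lotion alone does. Both IMQ+VEH libraries lay below IMQ for 13 of the 38 genes, against 34% of all genes with a count, and above IMQ for 11, against 31%, close to these background shares. Their median over the 35 tested members was -0.04 in log2 CPM, and it became 0.02 with total counts and 0.05 with FPKM. By edgeR, 100 of 15068 genes passed the threshold (0.664%), with 51 higher in IMQ+VEH (0.338%) and 49 lower (0.325%). None of the 35 tested members was among them, with 1 member and 1327 of all tested genes (8.81%) at an unadjusted p under 0.05. That member was Thy1, with a log2 fold change of 1.00 (SE 0.32, edgeR adjusted p = 0.291). Fibroblast genes, a cell type that makes Thy1, had a median of 1.01 over 11 genes in the same comparison, and their part in the value was not tested. Cd3g was lower in both IMQ+VEH libraries than in IMQ (-1.01, SE 0.54), as was Gzmc (-1.17, SE 0.61). Gzma had the highest log2 fold change (1.58, SE 1.30), with 30 counts in replicate 2, while replicate 1 and IMQ had 7 counts each.

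**Figure D5:**
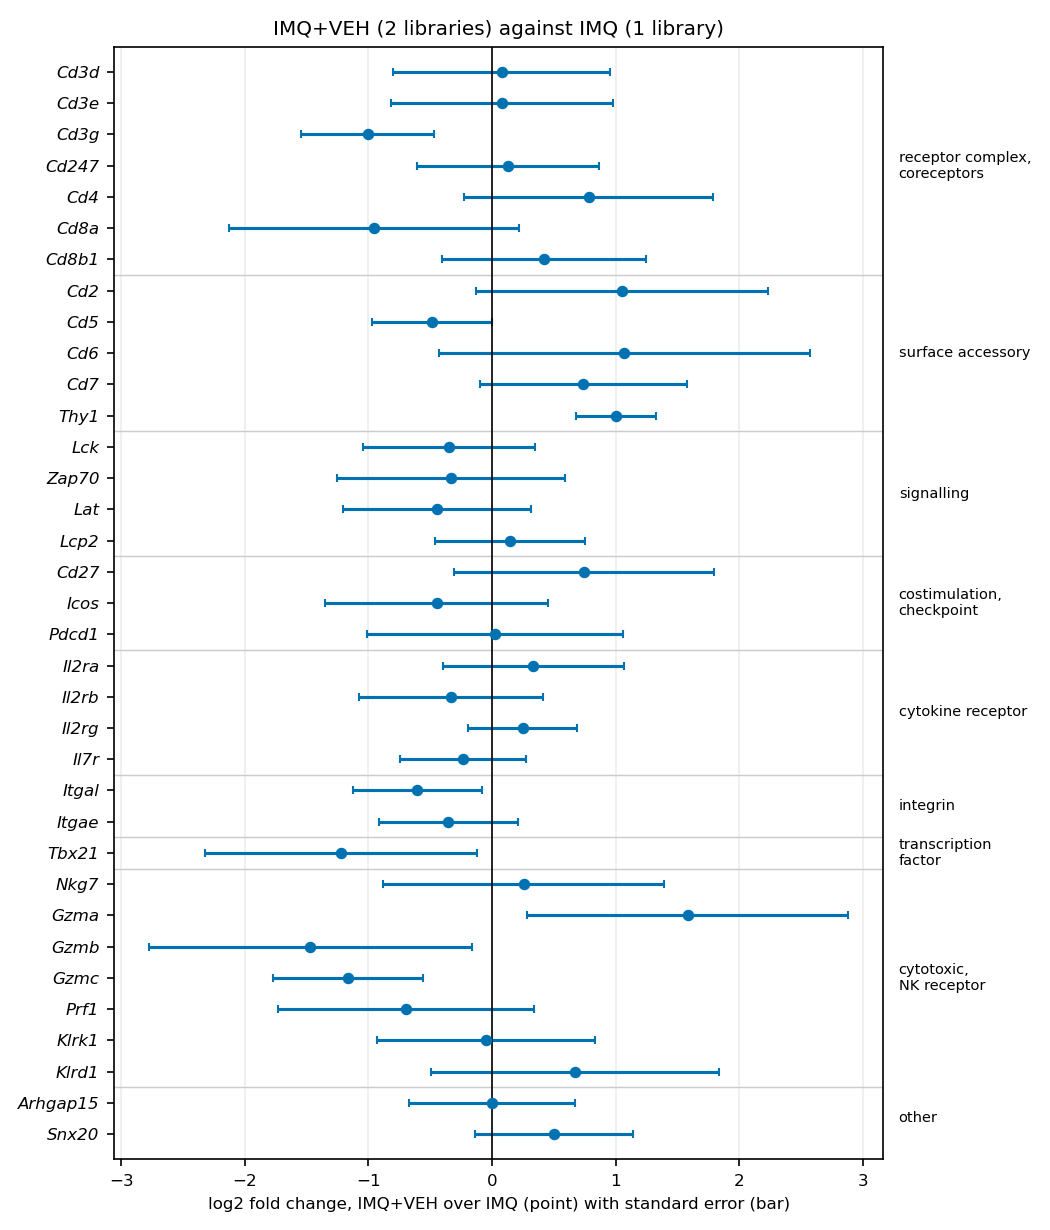
Log2 fold change of IMQ+VEH over IMQ (x axis, points) with its standard error (bars) from edgeR for the 35 tested genes. Thy1 at 1.00 is the only gene whose bar, doubled, would stay clear of 0, and 17 genes lie below 0 and 18 above.

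Within the IMQ+VEH pair 10 of the 38 genes differed over 2-fold. Replicate 2 was lower for 7, against 9.28% of all genes with a count (8.08% of tested genes), and higher for 3, against 2.86% (1.92% of tested genes). The 7 were Cd3d, Zap70, Lcp2, Cd28, Icos, Ctla4 and Il2ra, and the 3 were the cytotoxic genes Nkg7, Gzma and Gzmb. Both groups of genes differed between libraries of skin that was treated alike. Cd247, Cd7, Pdcd1, Klrk1, Il2rb and Cd8b1 differed by less than 0.1 in log2 CPM within the pair. Read against a single IMQ+VEH library, 8 of 35 tested members changed the sign of their difference to IMQ+IDMF without replicate 1, and 2 without replicate 2. Examples were Icos, at 0.96 without replicate 1, Il2ra, at 0.84 without replicate 1, and Gzma, at 1.42 without replicate 2.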

How the data were processed

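Mouse back skin was sequenced in single-end runs of 50 cycles, per the labels' protocols. The authors deposited a raw count and an FPKM value per gene symbol for each library, per the file headers. TopHat2, Cufflinks, HTSeq, GRCm38 and mm10 are named in the submitters' processing notes. For the versions, annotation and strand setting the sources used here give nothing, so reads of overlapping genes on opposite strands may be mixed.

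Counts were tested with edgeR 4.0.16 under R 4.3.3, by the two-sided quasi-likelihood test with TMM scaling, filterByExpr by group and Benjamini-Hochberg adjustment over 15068 genes (threshold 0.05). With a single replicated group (IMQ+VEH) there was 1 residual degree of freedom, moderated over genes (prior 11.2), and unreplicated groups were assumed to vary like that pair. Standard errors (SE) were the absolute log2 fold change over the root of F. Log2 CPM used a prior count of 2. The script was tested on simulated data. Intervals are exact Clopper-Pearson at 95%. Positions, exon overlaps and 50-base stretches came from GENCODE M21 (GRCm38). DESeq2 1.42.0, other scalings, filters and left-out libraries were alternatives.

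The members and lists were chosen with earlier results of these data known. By rule, counts are given for members with a mean count of at least 20 that lay lowest or highest in IMQ+IDMF, for CD3 and coreceptor chains, and for up to 3 genes of each other list that differed most from the nearer IMQ+VEH library with the same sign as their list's median. Counts of other members and of Klrc1 were added after their values were seen. So were the levels of Tcf7, Csk, Gata3 and Gata2, and the names of the transcription factor and mast cell genes above both IMQ+VEH libraries.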

Additional observations from a re-analysis of the deposited data

How the results depend on the processing

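The counts below both IMQ+VEH libraries, above both, and on either side of IMQ kept within 1.5 times of the reported ones under both other scalings, FPKM, a prior count of 0.5 and no filter, and without Arhgap15 and Snx20. A mean count of at least 50 left 12 members, of which 7 lay below both, 1 above both, 4 below IMQ in both and 2 above IMQ in both, counts that are lower because fewer members enter; the median difference to IMQ+VEH was then -0.53. Without 1 IMQ+VEH library, members above IMQ+VEH numbered 8 to 12, members with IMQ+VEH below IMQ 15 to 21 and those above IMQ 14 to 20, since 1 library is easier to pass than 2. Without a filter on low counts edgeR called 16 genes for IMQ+IDMF against IMQ+VEH and 424 for IMQ+VEH against IMQ, DESeq2 called 200 for IMQ+VEH against IMQ and 1 for IMQ+IDMF against the 3 others, and the cause was not tested. 0 members were among these calls. Under other scalings, filters and tools, 6 values of single members turned sign, both genes being at 0 within their error: Klrk1 in IMQ+VEH against IMQ became 0.022 with total counts, and Arhgap15, at -0.0015, became 0.0065 with DESeq2 size factors, 0.080 with total counts, 0.0013 without a filter, 0.0092 with a mean count of at least 50 and 0.0033 with DESeq2. No paired analysis was possible because the groups share fewer than 2 replicate numbers. Leaving out an IMQ+VEH library leaves no residual degree of freedom, so those values have no test. The alternative without the 5 members named earlier was chosen after seeing the data. Depth limits the members under 20 counts on average, of which there are 14.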

Other observations

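Lists of further cell types were read in the same way for IMQ+IDMF against IMQ+VEH, and 0 of their genes passed the threshold by edgeR. Over all tested genes, 27.5% lay below both IMQ+VEH libraries and 27.7% above both. Neutrophil genes lay below both IMQ+VEH libraries for 6 of 11 and above both for 2, with a median of -0.65 in log2 CPM, which was -0.41 against replicate 1 alone and -0.23 against replicate 2 alone. The calprotectin gene S100a9 had 20828 counts with IMQ+IDMF, against 74707 and 25269 with IMQ+VEH and 127988 with IMQ. Which cells made the S100a9 RNA was not tested, so its counts are no measure of neutrophils. Mast cell genes lay below both for 6 of 10 and above both for 2 (median -0.65, and -0.99 and -0.38 to replicates 1 and 2). The chymase gene Cma1 had 117 counts with IMQ+IDMF, against 301 and 195 with IMQ+VEH and 154 with IMQ. The 2 above both were Gata2 and Ms4a2, which also lay above IMQ. Gata2 had 3.71 CPM with IMQ+IDMF, against 2.99 and 2.29 with IMQ+VEH and 2.13 with IMQ. Langerhans cell genes lay below both for 6 of 8 and above both for 0 (median -0.42, and -0.29 and -0.68), with Cd74, the invariant chain of MHC class II, at 5213 counts with IMQ+IDMF, against 8327 and 8395 with IMQ+VEH and 6391 with IMQ. B and plasma cell genes lay below both for 3 of 8 and above both for 0 (median -0.14, and -0.12 and -0.20). Endothelial genes lay inside the IMQ+VEH pair for all 10 (median -0.03, and -0.57 and 0.55).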
